A study of Homo sapiens with 6 samples.

Results

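The replacement histone variants described are the 8 genes H3F3A, H3F3B, H2AFX, H2AFY, H2AFZ, H2AFV, H2AFJ and H1FX, taken by gene name from the array files. Every probe with one of these names was used, 15 probes in all, out of 50586 probes for 36328 gene names. Their current symbols are H3-3A, H3-3B, H2AX, MACROH2A1, H2AZ1, H2AZ2, H2AJ and H1-10. The RNA came from MOLT-4, a T-cell acute lymphoblastic leukaemia line. It was pulled down with an antibody to the 5′ cap, both the 7-methylguanosine (m7G) and the trimethylguanosine (m3G) form, and the RNA recovered was put on Agilent arrays read in 1 colour. There were 3 arrays from mock-transfected cells and 3 from cells overexpressing NUDT16, a decapping enzyme. The labels do not give what the mock vector held, the promoter, the time after transfection or whether the numbered samples came from separate cultures, so the p-values measure only the spread between these samples. RNA from before the pull-down was not analysed here, so signal in the eluate cannot be split into RNA abundance and capping, and fewer cells with an RNA cannot be told apart from less of it per cell.

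Most histone protein is made in S phase from the clustered HIST genes, whose messenger RNAs end in a stem-loop instead of a poly(A) tail. The replacement variants are transcribed through the cell cycle from genes outside those clusters, most of which have introns, and their messengers are capped with m7G and polyadenylated like other mRNAs. Their proteins are put into chromatin outside DNA replication, H3.3 by the HIRA and ATRX-DAXX chaperones and H2A.Z by the SRCAP and EP400 complexes. H2AFX stands between both kinds, since its gene can give a stem-loop transcript as well as a longer polyadenylated one.

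Sequences are shown first for the H3.3 genes, because stretches of some of their probes resemble probes for the clustered H3 genes. In each pair the letters that differ are in capitals, all reading 5′ to 3′ in the direction of the transcript. The first pair shares 41 of 49 aligned bases and the second 39 of 48.

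H3F3A A_24_P105298: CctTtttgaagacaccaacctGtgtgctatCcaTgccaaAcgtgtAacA
HIST1H3J A_23_P93282: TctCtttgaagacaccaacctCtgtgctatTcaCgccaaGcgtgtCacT
H3F3B A_24_P82419: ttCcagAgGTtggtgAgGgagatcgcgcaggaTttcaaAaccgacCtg
HIST1H3H A_33_P3287879: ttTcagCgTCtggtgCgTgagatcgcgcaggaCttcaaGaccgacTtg

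The comparison was made over the probes of the array only, with no gaps and from 30 identical bases upward. Only alignments that held an unbroken run of identical bases of a set length were scored, so a more scattered likeness could be missed. A further probe without a gene name, A_24_P7934, shared 47 of 57 aligned bases with H3F3A A_24_P105298. For the other H3F3A probe in the first part of the transcript, A_23_P23141, this search found no counterpart on the same strand. It starts at base 263 of its transcript, at chr1:226253364-226253423 (hg19, plus strand), and is shown whole, with no letters marked.

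H3F3A A_23_P23141: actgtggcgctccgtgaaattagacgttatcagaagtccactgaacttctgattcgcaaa

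The arrays were of unequal quality. Between 39.3% and 52.0% of the 58717 spots for cell RNA were well above background on 5 arrays, and 14.6% on NUDT16 replicate 2. Values are log2 signals minus the 75th percentile over the 6582 probes that were well above background on all 6 arrays; this percentile was an intensity of 224 on NUDT16 replicate 2 and of 2700 to 7720 on the others. The same-numbered mock and NUDT16 arrays shared a slide and varied together, so differences are given by pair as well. The transfected gene could not check the labels, as neither of its 2 probes was well above background on any array. The 1 probe called in the whole comparison was A_21_P0012400, for the pseudogene NUDT16P1, which was well above background on all 3 NUDT16 arrays and on 0 mock arrays (limma adjusted p 0.00155). It was tested only through the NUDT16 arrays, where it was higher, so the filter favours a positive difference for it. Without a filter 0 probes were called. Of 18 T-lineage markers, 12 were well above background on all 6 arrays, among them CD3E, CD1E and LCK, and the other 6 on 2 to 5 arrays. Of 12 markers for other cells, MS4A1, ALB, EPCAM, COL1A1 and COL1A2 were above it on none, while CD79A and KRT8 were above it on 6.

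No replacement variant passed the test between mock and NUDT16 arrays. A probe was tested when it was well above background on all 3 arrays of a group, which 12 of the 15 probes and 7 of the 8 genes were, H2AFJ being the exception. Of the 12, 10 were well above background on all 6 arrays. The other 2, H3F3B A_33_P3410194 and H2AFV A_23_P316487, passed only through the mock arrays, where they were higher, so that filter favours a negative difference for them. With limma and Benjamini-Hochberg adjustment over 17765 probes, 0 of the 12 were called at 0.05, against 0.00563% of all tested probes (1 probe). At an unadjusted p under 0.05 there were also 0 of 12, against 8 of all 17765 tested probes. Mock and NUDT16 values overlapped for each of the 12, and over all tested probes the groups were without overlap for 0.591%. All 12 adjusted p-values were 0.999 in limma without a block, and the 95% intervals of the differences from that fit all included 0. In simulated data for the same comparison, 0% of changes of 2 on the log2 scale and 40% of changes of 4 were recovered, so a 4-fold change was outside what the test could call. With replicate number as a block, 1 of the 12 had an unadjusted limma p under 0.05, against 1734 of the 17765 probes. This was H3F3B A_33_P3410194 (95% interval -1.92 to -0.20, limma adjusted p 0.467), for which the filter favours a negative difference.

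**Figure D1:**
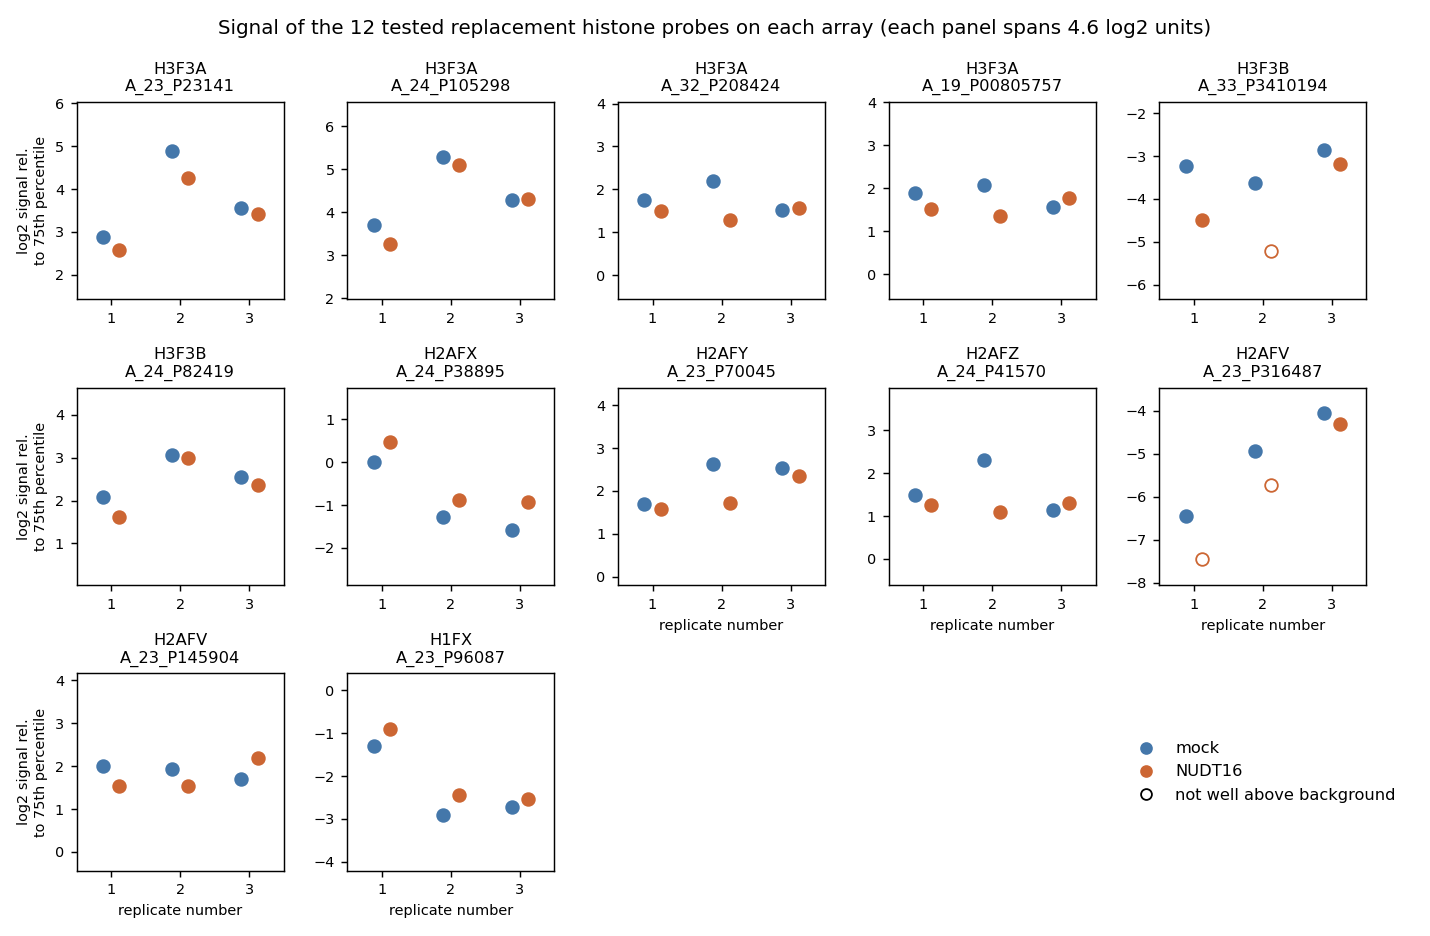
Signal of the 12 tested probes (y axis, log2 relative to the 75th percentile of the array's detected probes) by replicate number (x axis), mock in blue and NUDT16 in orange, 1 point per array, open where the probe was not well above background. Panels share a span and not a level; both same-numbered points of H3F3A A_24_P105298, H2AFX and H1FX move together from replicate to replicate.

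The H3.3 genes H3F3A and H3F3B encode the same protein, the H3 variant that replaces H3 at active genes. H3F3A had 4 probes, each well above background on all 6 arrays. A_24_P105298 starts at base 425 of the transcript (chr1:226259067-226259126). It read 3.70, 5.30 and 4.29 on mock replicates 1, 2 and 3 and 3.25, 5.10 and 4.30 on the NUDT16 arrays. Both arrays of replicate 2 were highest and both of replicate 1 lowest, so the groups overlapped. The difference was -0.21 (95% interval -1.73 to 1.30), with pairs at -0.45, -0.20 and 0.01. A_23_P23141 behaved alike, at 2.88, 4.88 and 3.55 in mock and 2.59, 4.25 and 3.43 in NUDT16 arrays, a difference of -0.35 (-1.90 to 1.2).

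The 2 H3F3A probes further along the transcript did not follow the replicate number. A_32_P208424, from base 960 (chr1:226259602-226259661), read 1.76, 2.19 and 1.52 in mock and 1.49, 1.29 and 1.57 in NUDT16 arrays. Here the pair of replicate 2 was split, mock being the highest array and NUDT16 the lowest. The difference was -0.37 (95% interval -1.62 to 0.87). A_19_P00805757, from base 986 (chr1:226259628-226259687), overlaps it by 34 bases, in which they differ by 1 base, T10G, counted from the first overlapping base with A_32_P208424 first. It read 1.88, 2.08 and 1.56 in mock and 1.52, 1.35 and 1.77 in NUDT16 arrays, a difference of -0.30 (-1.54 to 0.95).

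The 4 probes for 1 gene thus fell into 2 kinds of profile. After centring each probe on its own mean, the root mean square distance over the 6 arrays was 0.15 on the log2 scale between the 2 upstream probes, 0.09 between the 2 downstream ones, and 0.69 to 0.75 across. Replicate number held 93.2% and 96.1% of the sum of squares over the arrays for the upstream probes, and 7.89% and 0.69% for the downstream ones. The median over all tested probes was 75.6%. For the group these shares were 4.95% and 2.23% upstream and 42.9% and 36.9% downstream, against a median of 9.41%. The rest held 1.84% and 1.67% upstream and 49.2% and 62.4% downstream. The differences between the groups ran from -0.37 to -0.21 over the 4 probes.

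The 2 probes of H3F3B also differed, though not as those of H3F3A did. A_24_P82419, from base 334 (chr17:73774912-73774971, minus strand), read 2.09, 3.06 and 2.54 in mock and 1.61, 3.00 and 2.37 in NUDT16 arrays. Replicate 2 was again high in both groups and replicate number held 91.6% of the sum of squares. The difference was -0.23 (95% interval -1.60 to 1.13), with all 3 pairs below 0 at -0.47, -0.06 and -0.17. For this probe and both upstream H3F3A probes, the difference turned positive without mock replicate 2 (0.01 to 0.22) and without NUDT16 replicate 1 (0.07 to 0.27).

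The second H3F3B probe, A_33_P3410194, from base 2293 (chr17:73772867-73772926), read -3.24, -3.63 and -2.85 in mock and -4.49, -5.22 and -3.18 in NUDT16 arrays. The lowest value, on NUDT16 replicate 2, was not well above background and is therefore only an upper limit. As the probe was tested only through the mock group, its difference of -1.06 is a description. It was -0.13 with another background correction (normexp), -0.60 without NUDT16 replicate 2 and -1.62 without NUDT16 replicate 3. The pairs stood at -1.25, -1.59 and -0.33. Replicate number held 48.9% of the sum of squares of this probe, the group 40.8% and the rest 10.3%.

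The 2 upstream H3F3A probes and H3F3B A_24_P82419 lay nearer to the clustered H3 genes than the other member probes did. The median centred profile of 12 tested clustered H3 genes was -1.09, 0.65 and -0.27 on mock replicates 1, 2 and 3 and -1.06, 2.57 and -0.70 on the NUDT16 arrays. Root mean square distances to it were 0.82 and 0.87 for the H3F3A probes and 0.93 for the H3F3B probe, and 1.34 to 1.93 for the other 9 member probes. Among the 12 clustered H3 genes themselves they ran from 0.05 to 0.91, with a median of 0.16. The distances of the 3 probes lay far above that median. The 12 genes include HIST1H3A, which was at -0.51 in the pair of replicate 2 and was the only one of them lower in the NUDT16 group. Over 5586 other genes detected on all arrays the median was 1.39 and the smallest distance 0.11. How many of these lay as near as the 3 probes was not counted. The pairs themselves differed. Replicate 2 exceeded replicate 1 by 1.73 and 1.84 for the upstream H3F3A probes and by 1.18 for H3F3B, against a median of 2.69 for the clustered H3 genes. Within the pair of replicate 2, however, NUDT16 minus mock was -0.20, -0.63 and -0.06 for these 3 probes and had a median of 1.88 for the clustered H3 genes. The unnamed probe A_24_P7934 was at 0.57 in that pair. For H3F3A A_23_P23141, among the 3 probes, the search had found no similar probe on the same strand. Whether clustered H3 transcripts bind the H3.3 probes was not tested.

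**Figure D2:**
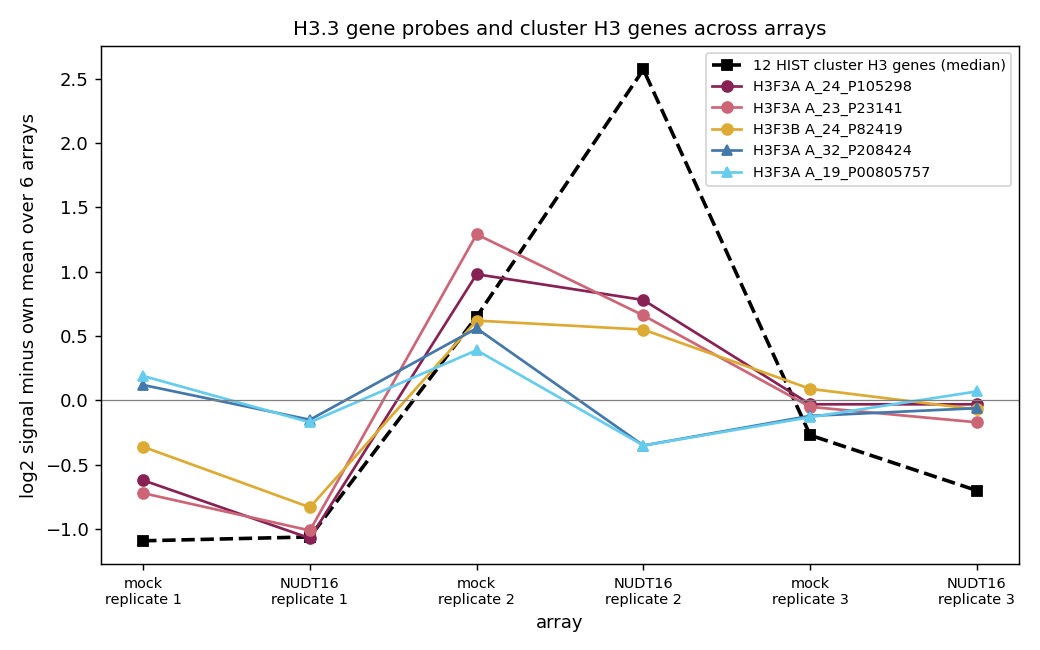
Log2 signal minus each probe's mean over 6 arrays (y axis) for 5 H3.3 gene probes and the median of 12 clustered H3 genes, array by array (x axis, ordered by replicate number). The 3 probes drawn with circles are higher on both arrays of replicate 2 than on both of replicate 1, the 2 drawn with triangles are highest on mock replicate 2 and lowest on NUDT16 replicate 2, and the clustered genes peak at 2.57 on NUDT16 replicate 2.

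H2AFZ and H2AFV encode the H2A.Z proteins, which differ by few residues and mark promoters and enhancers. For H2AFZ the probe A_24_P41570 is shown whole. It starts at base 393 of its transcript, and the files give a position for only 28 of its 60 bases (chr4:100869240-100869267, minus strand).

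H2AFZ A_24_P41570: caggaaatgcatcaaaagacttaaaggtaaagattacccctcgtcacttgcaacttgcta

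It read 1.5, 2.3 and 1.14 in mock and 1.25, 1.09 and 1.30 in NUDT16 arrays. Mock replicate 2 stood above the other 5 arrays, which lay between 1.09 and 1.5. The difference was -0.43 (95% interval -1.72 to 0.87), with pairs at -0.25, -1.21 and 0.16. It was -0.10 without mock replicate 2.

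For H2AFV, A_23_P145904 (NM_012412, chr7:44873872-44873931, minus strand) read 2.0, 1.93 and 1.71 in mock and 1.55, 1.55 and 2.18 in NUDT16 arrays. The highest array was NUDT16 replicate 3, and the pairs differed in sign at -0.46, -0.38 and 0.48. Its difference, -0.12 (95% interval -1.37 to 1.13), was the smallest of the 12, and became 0.01 in a paired fit on replicates 1 and 3. The second H2AFV probe, A_23_P316487, belongs to another transcript (NM_138635) and lies at chr7:44867473-44867532. It read -6.45, -4.93 and -4.05 in mock and -7.46, -5.72 and -4.31 in NUDT16 arrays. NUDT16 replicates 1 and 2 were not well above background. This probe too was tested only through the mock group, and its values are a description. The pairs stood at -1.01, -0.79 and -0.27, and the difference of -0.69 became 0.13 without NUDT16 replicate 1 and 0.43 with normexp.

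H2AFY encodes macroH2A1, an H2A with a large extra domain that is enriched on the inactive X chromosome. Its main probe starts at base 1210 of the transcript, at chr5:134670725-134670784 on the minus strand.

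H2AFY A_23_P70045: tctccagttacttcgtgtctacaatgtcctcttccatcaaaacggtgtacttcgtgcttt

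It read 1.70, 2.63 and 2.53 in mock and 1.59, 1.73 and 2.34 in NUDT16 arrays. Both arrays of replicate 1 were low, both of replicate 3 high, and those of replicate 2 apart. The difference was -0.40 (95% interval -1.71 to 0.91), with all 3 pairs below 0 (-0.11, -0.90 and -0.19). A second probe, A_21_P0014722, for the Ensembl transcript ENST00000512507, was well above background on 1 array, mock replicate 3, and was not tested.

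H2AFX encodes H2A.X, which is phosphorylated around DNA double-strand breaks. Its probe A_24_P38895, from base 1527 of the transcript (chr11:118964591-118964650, minus strand), holds the poly(A) signal ATTAAA, in the direction of the transcript. That motif was in 3.5% of 50599 array probes in this direction (6.0% on either strand) and in no other member probe in this direction; AATAAA, found in 7.9% (11.3% on either strand), was in none. The probe read 0.01, -1.27 and -1.58 in mock and 0.46, -0.89 and -0.93 in NUDT16 arrays. Both arrays of replicate 1 stood above the other 4, and in each pair the NUDT16 array was higher, by 0.45, 0.38 and 0.65. The difference was 0.49 (SE 0.68, 95% interval -0.99 to 1.98, limma adjusted p 0.999). With the replicate block the interval narrowed to -0.23 to 1.22 and still included 0 (limma adjusted p 0.504), and without scaling of the arrays the sign turned (-0.50). The difference was 0.04 without NUDT16 replicate 1, 0.18 without mock replicate 3 and 0.97 without mock replicate 1.

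Linker histones bind the DNA between nucleosomes. H1FX encodes one of them, and its probe starts at base 595 of the transcript, at chr3:129034466-129034525 on the minus strand.

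H1FX A_23_P96087: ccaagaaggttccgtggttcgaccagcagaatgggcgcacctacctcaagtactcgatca

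It read -1.29, -2.91 and -2.73 in mock and -0.90, -2.44 and -2.54 in NUDT16 arrays. As for H2AFX, replicate 1 was high in both groups and all 3 pairs were above 0 (0.39, 0.47 and 0.19). The difference was 0.35 (95% interval -1.18 to 1.89), and it was -0.65 without scaling and -0.18 without NUDT16 replicate 1.

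H2AFJ encodes H2A.J, an H2A variant that accumulates in senescent cells. Neither of its probes could be tested. A_23_P204277 (chr12:14927815-14927874) was well above background on replicates 1 and 3 of both groups, where it read -6.78 and -6.13 in mock and -7.32 and -6.62 in NUDT16 arrays, so the pairs stood at -0.54 and -0.48. A_33_P3379391 (chr12:14928286-14928345) was well above background on no array.

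By direction, 3 of the 10 probes that were well above background on all 6 arrays were lower in the NUDT16 array of all 3 pairs, 1 each for H3F3A, H3F3B and H2AFY. Of all 6582 such probes 19.3% were. The 2 probes that were higher in all 3 pairs were those for H2AFX and H1FX, and 27.0% of the 6582 were. Several probes share a gene, so the 10 do not count as independent. With 1 probe per gene, the brightest, 5 of 7 genes were lower and 2 higher, against 7438 lower and 6296 higher of all 13734 tested genes. The median difference of the 7 was -0.21 (0.01 without mock replicate 2 and -0.01 without NUDT16 replicate 1), and the median over all tested genes was -0.06. It was 0.16 over the 6582 probes detected on all 6 arrays, as the brightest probes of these 7 genes were. The median of the 7 genes was -0.25, -0.20 and 0.16 in the pairs of replicates 1, 2 and 3. Without scaling all 12 probes were lower, when the median of all probes was itself -1.10.

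**Figure D3:**
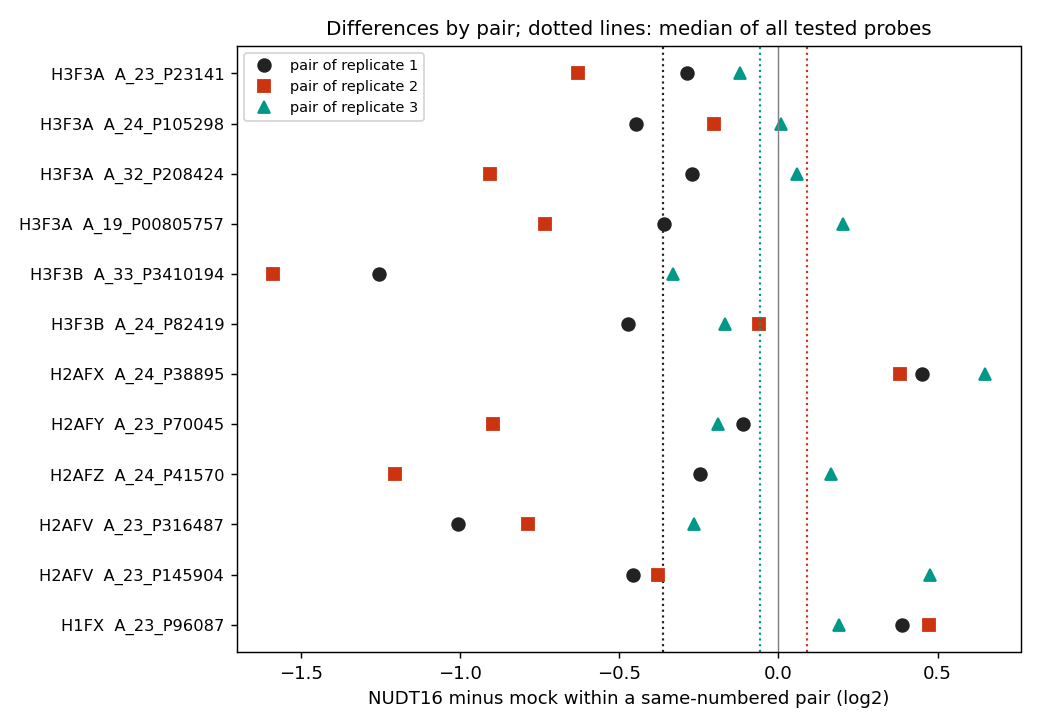
NUDT16 minus mock on the log2 scale (x axis) within each same-numbered pair for the 12 tested probes (y axis), with dotted lines at the median of all 17765 tested probes for that pair. H2AFX and H1FX have all 3 points above 0, and the pair of replicate 2 gives the lowest point for H2AFX, H2AFZ, H2AFY, H3F3B A_33_P3410194 and 3 H3F3A probes.

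The members also fell into sets by how they varied over the 6 arrays. Among the 7 genes whose brightest probe was well above background throughout, the smallest distances between centred profiles were 0.18 for H2AFX and H1FX, 0.23 for H3F3A and H3F3B and 0.38 for H2AFZ and H2AFV. H2AFY lay about as near to H2AFV (0.38) and at 0.43 from H2AFZ. The largest was 1.43, for H3F3A and H1FX. Replicate 2 minus replicate 1 was 1.73 for H3F3A, but -1.32 for H2AFX and -1.59 for H1FX. Among 5647 other genes compared, the nearest profile to H3F3A was that of HIST1H3A (distance 0.11). HIST1H3A read 0.27, 2.0 and 1.02 in mock and -0.07, 1.48 and 0.92 in NUDT16 arrays. It was not typical of its class. In the pair of replicate 2 it was at -0.51, against a median of 1.88 for the 12 clustered H3 genes. Of the 61 tested clustered HIST genes, it was the only one lower in the NUDT16 group. The nearest to H2AFX was GSS (0.07), to H1FX DHX58 (0.06), to H2AFY TIMM23 (0.09) and to H2AFV FAM49B (0.07). For H3F3B and H2AFZ the nearest were probes without a gene name, A_33_P3354728 (0.09) and A_33_P3394786 (0.04). These are descriptions over 6 arrays that share 3 slides.

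The clustered HIST genes, with stem-loop messengers, gave other values in the same pairs. Of 61 tested, 0 were called in limma. In the NUDT16 group 60 were higher and 1 lower, HIST1H3A, at -0.31, while of all 13734 tested genes 6296 were higher and 7438 lower. The median difference of the clustered genes was 0.42, with 0.01, 1.55 and -0.37 in the 3 pairs, the highest being the pair with the poorly detected array. In that pair the replacement variants had a median of -0.20. In the pair of replicate 3 the order was the other way, with -0.37 for the clustered genes and 0.16 for the variants. By class, the clustered genes had medians of 1.38 (H1), 1.52 (H2A), 1.34 (H2B), 1.88 (H3) and 1.91 (H4) in the pair of replicate 2. The difference between both kinds of histone gene was not tested. It was widest in the pair of replicate 2, where 14.6% of spots on the NUDT16 array were well above background.

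**Figure D4:**
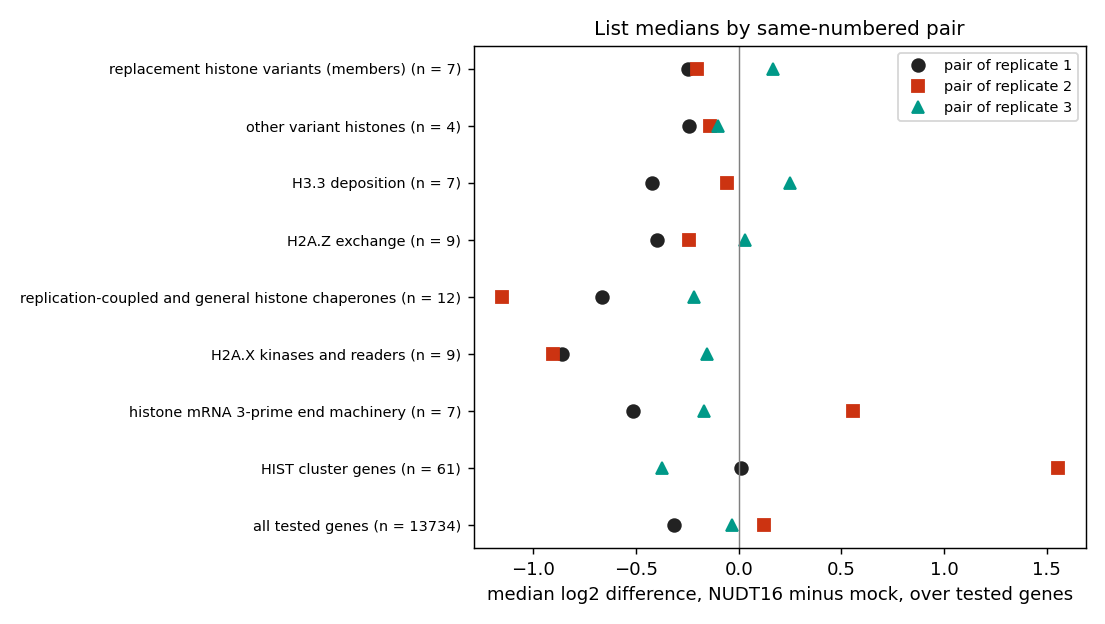
Median log2 difference, NUDT16 minus mock (x axis), over the tested genes of each list (y axis, number of genes in brackets), separately for the 3 same-numbered pairs. The clustered HIST genes reach 1.55 in the pair of replicate 2, where the replacement variants are at -0.20 and all tested genes at 0.12.

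Genes that deposit or read the variants were not called either, with 0 called by limma in each list and the counts that follow taken without regard to a test. For comparison, 6296 of all 13734 tested genes were higher in the NUDT16 group and 7438 lower. Of 7 genes of H3.3 deposition, all tested, 2 were higher and 5 lower, with a median of -0.11. Their ends were the chromatin remodeller ATRX at -1.58 (SE 1.09) and the HIRA partner UBN2 at 0.54 (SE 0.68). Of 12 genes of H2A.Z exchange, 9 were tested, with 4 higher, 5 lower and a median of -0.21. ANP32E, the chaperone that removes H2A.Z, was at -1.62 (SE 1.22), and DMAP1 at 0.56 (SE 0.64). All 12 replication-coupled and general chaperones were tested, and 11 were lower, with a median of -0.63. SUPT16H, a subunit of FACT, was at -1.37 and SET at -1.31, while ASF1B was at 0.43.

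Of 10 kinases and readers of H2A.X, 9 were tested, 7 of them lower, with a median of -0.57. The ubiquitin ligases RNF168 and RNF8 stood at -1.29 and -1.17. The 7 genes for histone messenger ends, among them SLBP, the stem-loop binding protein, at -0.44, had a median of -0.07, and LSM10 was highest at 0.54. Of 16 other variant and testis histones, 13 were on the array and 4 tested. The centromeric H3 variant CENPA was at -1.11 (SE 0.74), with pairs at -0.42, -2.99 and 0.06.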

How the data were processed

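The 6 one-colour Agilent arrays were analysed. Per the file headers, Feature Extraction 10.7.3.1 gave each spot a linear fluorescence intensity after background subtraction and detrending, and put surrogate values in place of spots at background. The authors deposited these intensity values without normalization between arrays. The deposited value table, on the log2 scale, does not state how it was made; its column medians were 6.06 to 6.18, on each array it ranked the spots as their median intensity less the local background does (Spearman's rho 1), and its centring is unknown. It served as an alternative.

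Control spots and outlier-marked spots were left out, spots of a probe were averaged, and 13 of 50599 probes were dropped because an array had no usable spot for them. Scaling used the 75th percentile over probes well above background on all 6 arrays, because under 50% of spots were detected on 4 arrays and the percentile over all spots was an intensity of 8.66 on NUDT16 replicate 2. Tests used limma 3.58.1 in R 4.3.3 (lmFit, eBayes, two-sided, no block, Benjamini-Hochberg over 17765 probes). Same-numbered arrays share a slide and a scan, and their deviations from group means had correlations of 0.84, 0.39 and 0.77, so the numbers pair the arrays. The procedure was tested on simulated data with known changes. Another gene of this kind is not reported here. All probes of the members are named; other lists give at most their ends. Members and lists were chosen with earlier results of these data known, and the comparison with the clustered H3 profile, the search for similar probes and the motif search were chosen after the values were seen. Probe positions are hg19; exon and untranslated-region positions are not given. Alternatives were other scalings, background corrections, filters, the replicate block, the deposited table, a variance trend, array weights and leaving out each array.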

Additional observations from a re-analysis of the deposited data

How the results depend on the processing

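No member probe was called under any of the 17 alternatives run, and 190 of 202 member differences kept their sign, with limma adjusted p from 0.12 to 1. The signs that turned were H2AFX (-0.50) and H1FX (-0.65) without scaling, H2AFV A_23_P316487 (0.43) with normexp, and H2AFV A_23_P145904 (0.0085) with the replicate block on replicates 1 and 3. Leaving out 1 array gave ranges of -0.79 to 0.21 for H3F3A A_23_P23141, -0.66 to 0.27 for H3F3A A_24_P105298, -0.57 to 0.12 for H3F3B A_24_P82419, -1.45 to 0.13 for H2AFV A_23_P316487 and -0.18 to 0.86 for H1FX. The signs held over 0.04 to 0.97 for H2AFX, -1.62 to -0.60 for H3F3B A_33_P3410194, -0.53 to -0.19 and -0.43 to -0.18 for H3F3A A_32_P208424 and A_19_P00805757, -0.69 to -0.23 for H2AFY, -0.68 to -0.10 for H2AFZ and -0.33 to -0.01 for H2AFV A_23_P145904. With normexp, H3F3B A_33_P3410194 was at -0.13. The members' median ran from -0.47 without mock replicate 1 to 0.015 without mock replicate 2 when 1 array was left out, and was -1.21 without scaling, where the median of all probes was -1.10. That median of all probes was -0.26 with quantile normalization, 0.47 with normexp and -0.21 in the authors' value table. Over all probes, 1 was called, by the main setting and with the replicate block, and 0 or 1 when 1 array was left out (0 without mock replicate 2). With limma, 0 were called without scaling (1 at an unadjusted p under 0.05), with normexp (1), without a filter (160), among probes detected on all 6 arrays (2) and in the value table (10). The replicate block on replicates 1 and 3 alone called 613, of which 12 were higher and 601 lower, and the cause was not tested. The replicate block changed no call of a member. Only 14.6% of spots on NUDT16 replicate 2 were well above background, which limits every value that rests on that array.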
